A study of Mus musculus with 157 samples.

Results

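The comparison was made in sorted double negative 3 (DN3) thymocytes, taken as every library of the earlier sequencing run whose tissue label was DN3 of normal thymus and whose source was non-tumoral thymus. These were 13 of the 157 libraries of the series: 5 came from RERT2-Cdc20(D/AAA) mice and 8 from RERT2-Cdc20(+/D) mice. The study set sorted thymic populations and thymic lymphomas of mice with an altered Cdc20 against their controls, and its title calls the D/AAA mice aneuploid. D/AAA animals carry a D allele and an AAA allele of Cdc20, +/D animals carry a wild-type and a D allele, and both carry RERT2, so the D allele and RERT2 are shared by both groups. Sorted cells, 5000 or more per sample, went straight into lysis buffer, total RNA was purified on RNeasy Plus Mini columns, and libraries were read on a HiSeq2000. The labels used here give no age, sex, strain, treatment or animal of origin and no replicate number, so the replicate numbers below follow deposition order. As nothing states that the libraries came from separate animals, the p-values measure only the spread between these libraries.

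Cdc20 is the activator that loads substrates onto the anaphase-promoting complex (APC/C), the ubiquitin ligase whose removal of securin and cyclin B lets sister chromatids part. While kinetochores lack attachment to the spindle, Mad2 binds Cdc20 in the mitotic checkpoint complex and holds the ligase off. The AAA form is changed in its Mad2-binding motif and escapes this brake, so cells that carry it can enter anaphase early and missegregate chromosomes. DN3 cells are T cell progenitors that rearrange the T cell receptor beta locus, display the pre-T cell receptor and Notch1, and divide in a burst once beta selection has been passed. A gene count adds the reads of all alleles of Cdc20 and therefore cannot show the AAA form itself.

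The libraries had the profile of the DN3 label. In CPM (counts relative to the TMM-scaled library total) Il2ra, the CD25 chain, averaged 509 in +/D and 523 in D/AAA libraries. Ptcra, the invariant pre-T cell receptor chain, averaged 630 CPM in +/D libraries, with a log2 fold change of -0.01 for D/AAA over +/D, and Lck, the kinase that signals from it, lay between 2895 and 3572 CPM in every library. All 20 genes of the DN3, pre-TCR, recombination and Notch list were measured well enough to be tested, and their summed level was 12880.5 to 16558 CPM in +/D and 12741 to 14799 CPM in D/AAA libraries. Some markers of other cells were low or absent: Cd8a stayed at or under 8.28 CPM and Mpo at or under 0.132 CPM, while Pax5, Itgax, Krt5, Foxn1, Tal1 and Elane had 0 counts in all 13 libraries. The summed lists of other cell types were not all low, at 1264 to 2738 CPM for gamma delta T cells, 340 to 616 CPM for B cells, 132 to 359 CPM for NK and innate cells and 76.3 to 167 CPM for stroma. Kit, the stem cell factor receptor of earlier progenitors, reached 69.3 CPM in +/D and 48.9 CPM in D/AAA libraries.

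Some libraries stood apart before any comparison. Totals were 7205952 to 10114569 counts in +/D and 3773392 to 7519509 counts in D/AAA libraries, and the lowest belonged to D/AAA replicate 5. That library had counts in 14107 genes against 16794 to 18084 in the others, and it lay at 154 on the first principal component (25.4% of the variance) against -20.7 to 3.46 for the other 12. Xist, the RNA of the inactive X chromosome, divided the libraries: it was at 313, 277 and 264 CPM in +/D replicates 2, 7 and 8 and at 460 CPM in D/AAA replicate 5, and at or under 0.558 CPM in the other 9. The Y-linked Ddx3y was the reverse, at 26.2 to 96.0 CPM in those 9 and at or under 0.380 CPM in the 4 Xist-high libraries. For Cdc20, the cell cycle lists, the stage lists and the immediate early genes, values are also given for the 5 +/D and 4 D/AAA libraries with low Xist. The median SD of a gene on the log2 scale was 0.346 in +/D and 0.410 in D/AAA libraries, and 0.319 in D/AAA without replicate 5.

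No gene passed the test across the transcriptome. Of 12912 genes with enough counts, 0 (0%) differed at an adjusted p under 0.05 in edgeR's quasi-likelihood test, and the smallest adjusted p was 0.0683. At an unadjusted p under 0.05 there were 549 genes (4.25%), 310 higher (2.40%) and 239 lower (1.85%) in D/AAA. The 5 D/AAA libraries lay wholly above the 8 +/D libraries for 9 genes (0.0697%) and wholly below them for 15 (0.116%). The median log2 fold change was -0.01, and 6329 genes (49.0%) were higher in value. DESeq2, run on the same counts, called 13 of 12901 genes (0.101%). In every fold change below, D/AAA is set over +/D, values after ± are SE for fold changes and SD for levels, and edgeR's unadjusted p is given with the adjusted one where that is informative. In bulk RNA, fewer cells of a kind and less RNA per cell cannot be told apart.

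The 5 smallest p-values belonged to copies of other genes, and 4 of these were copies of genes that lie near Cdc20 on chromosome 4. Cdc20 itself spans chr4:118432901-118437352 on the minus strand (GRCm38). Hmgn2, which encodes a nucleosome-binding high mobility group protein, lies 15.5 Mb from it, and several intronless copies of Hmgn2 are scattered over other chromosomes. Reads of such copies and of their parent gene can be exchanged by the counting, so every value for a copy is uncertain as a measure of that locus. The copy Gm10182, a processed pseudogene at chr9:22321105-22321377 on the minus strand, is shown because its whole length of 273 bases is found unbroken in Hmgn2 and in a further copy, Gm10282, and because its counts gave the sharpest pattern. Capitals mark the start and stop codons of the reading frame it shares with Hmgn2:
Gm10182: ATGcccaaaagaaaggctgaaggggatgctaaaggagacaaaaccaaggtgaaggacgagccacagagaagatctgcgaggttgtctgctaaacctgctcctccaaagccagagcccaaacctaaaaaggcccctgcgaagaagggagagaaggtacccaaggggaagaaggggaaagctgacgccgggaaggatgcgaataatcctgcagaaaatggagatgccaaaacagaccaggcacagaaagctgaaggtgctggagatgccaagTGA

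Gm10182 was counted in every +/D library, at 33.3 to 107 CPM (median 40.7), which were 331 to 884 counts. D/AAA replicates 1, 2, 3 and 5 had 0 counts, which allows up to 0.556, 0.504, 0.430 and 0.773 CPM there, and D/AAA replicate 4 had 386 counts or 51.1 CPM. D/AAA replicate 4 thus lay among the +/D libraries and the other 4 lay below all of them. With all 5 D/AAA libraries the edgeR test gave a p of 0.0928. Whether replicate 4 has the genotype of its label along chromosome 4 was not tested, and every D/AAA value in the text includes it unless it is said to be left out. Replicate 4 is left out below after its values were seen, so a p without it is chosen by the outcome and is no support; for Gm10182 it was 7.66e-06 after edgeR's adjustment.

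The second copy of the same reading frame differed in the opposite direction. Gm10282, annotated as protein-coding at chr8:72304110-72305260 and 99.3% identical to Hmgn2, was at 70.6 to 116 CPM in +/D libraries and at 226, 338, 212, 117 and 187 CPM in D/AAA replicates 1 to 5. All 5 D/AAA libraries lay above all 8 +/D libraries, with replicate 4 just above the highest of them. The means were 87.9 ± 18.9 and 216 ± 80.1 CPM (n = 8 and 5), the log2 fold change was 1.3 ± 0.20, and this gene held the smallest p of all (5.29e-06, edgeR adjusted p = 0.0683). Without D/AAA replicate 4 its adjusted p was 0.00209. The copy Gm20379 on chromosome 13 (92.5% identical) was at 6.17 to 12 CPM in +/D and at 20.5, 30.8, 22.3, 14.6 and 32.3 CPM in D/AAA libraries, again with no overlap (log2 fold change 1.32 ± 0.26, edgeR p = 7.83e-05, adjusted p = 0.198). The copy Gm7125 on chromosome 15 (97.4% identical) was at 31.4 to 52.0 CPM and at 80.2, 91.3, 78.9, 50.9 and 55.1 CPM (0.82 ± 0.19, edgeR p = 0.00044), with replicate 4 inside the +/D range. Hmgn2 itself overlapped fully, at 726 to 1212 CPM in +/D and 905 to 1278 CPM in D/AAA libraries (0.14 ± 0.14, edgeR p = 0.337).

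**Figure D1:**
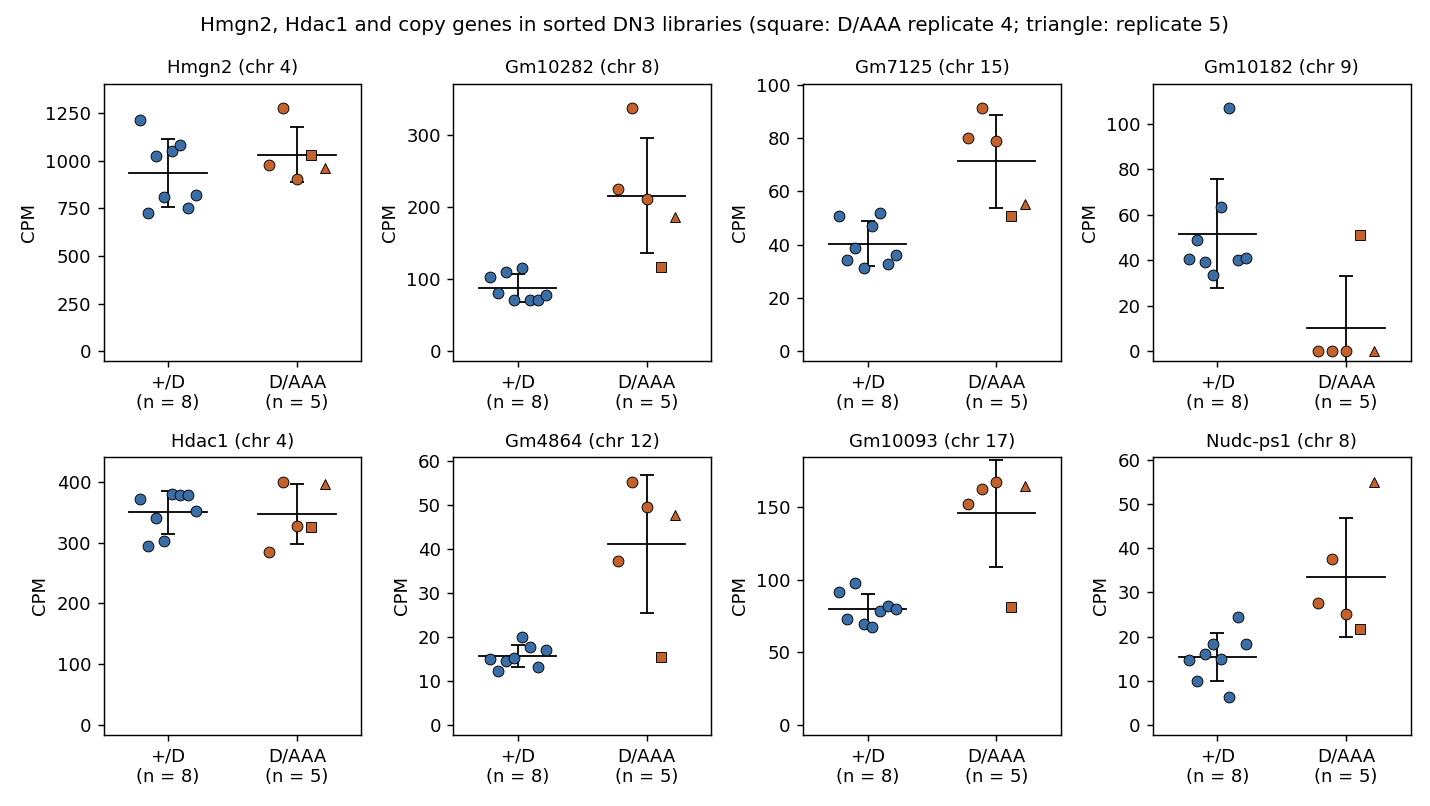
CPM of Hmgn2, Hdac1 and 6 copies of genes near Cdc20 (vertical axes) in the 8 +/D and 5 D/AAA libraries (horizontal axis); each point is a library, bars are group means, error bars are SD, the square is D/AAA replicate 4 and the triangle D/AAA replicate 5. Hmgn2 and Hdac1 overlap between genotypes, Gm10282 lies at 117 CPM or more in D/AAA against at most 116 in +/D, and Gm10182 is at 0 in every D/AAA library but replicate 4, at 51.1 CPM.

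Copies of Hdac1, a histone deacetylase gene 11.1 Mb from Cdc20, also differed in value. Gm4864 on chromosome 12 (94.6% identical) was at 12.3 to 19.9 CPM (median 15.1) in +/D libraries and at 37.2, 55.3, 49.6, 15.5 and 47.6 CPM in D/AAA libraries. Gm10093 on chromosome 17 (99.4% identical) was at 67.2 to 97.6 CPM (median 79.1) and at 153, 163, 168, 81.0 and 165 CPM. For both, 4 D/AAA libraries lay above every +/D library and replicate 4 lay among them. Their log2 fold changes were 1.39 ± 0.25 (edgeR p = 3.15e-05, adjusted p = 0.198) and 0.87 ± 0.17 (edgeR p = 6.45e-05, adjusted p = 0.198), and without replicate 4, a choice made by its values, the adjusted p-values were 0.00209 and 0.00388. With Gm10182 and Gm10282 these were the 4 genes called of 13257 tested in that fit (0.0302%), and the same 4 were called of 13772 (0.0290%) without replicates 4 and 5. Hdac1 itself was at 294 to 380 CPM in +/D and 285 to 400 CPM in D/AAA libraries (-0.01 ± 0.12).

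Copies of 3 further genes of the region also had higher values in D/AAA. Nudc-ps1, a copy of the dynein cochaperone gene Nudc, was at 6.29 to 24.5 CPM in +/D and at 27.7, 37.6, 25.1, 21.7 and 55.1 CPM in D/AAA libraries (1.12 ± 0.30, edgeR p = 0.0015). Gm4800, a copy of Rbbp4, which encodes a histone-binding subunit of chromatin complexes, was at 0.855 to 2.06 CPM and at 4.84, 4.72, 5.17, 3.71 and 8.28 CPM, with no overlap (1.68 ± 0.47, edgeR p = 0.00236). Gm11223, a copy of the tubulin-binding Stmn1, was at 3.80 to 8.43 CPM and at 11.3, 20.7, 12.1, 7.29 and 10.9 CPM (0.98 ± 0.33, edgeR p = 0.00753). In Nudc-ps1 and Gm11223 it was again replicate 4 that lay among the +/D libraries. The parents differed less in value: Nudc by -0.03 (p = 0.809), Stmn1 by 0.22 (p = 0.17) and Rbbp4 by 0.34 (edgeR p = 0.0239).

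A sequence search of 5511 copy genes against named protein-coding transcripts put these cases in a wider frame; the search and the window of 20 Mb on either side of Cdc20 were chosen after the values had been seen, so the counts are a description with no test. Of the 862 tested copies with a matched parent, 33 had their parent within the window. Of these, 9 had an unadjusted p under 0.05, 8 higher and 1 lower, which is 27.3% against 4.25% of all genes tested. Those 9 came from 6 of 18 parents, and copies of 1 parent can share reads. Of the copies whose parent lay outside the window, 39 (4.70%) had such a p, 16 higher and 23 lower. Of 17 copies with a parent on chromosome 4 outside the window, 0 had such a p. The median log2 fold change was 0.49 for the 33 copies and -0.02 for the rest. The single lower copy was Gm10288 (-0.60, edgeR p = 0.0184), whose parent is the ribosomal protein gene Rpl11. All genes located in the window, copies or not, numbered 338, and 20 of them (5.92%) had a p under 0.05, 9 of these higher.

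**Figure D2:**
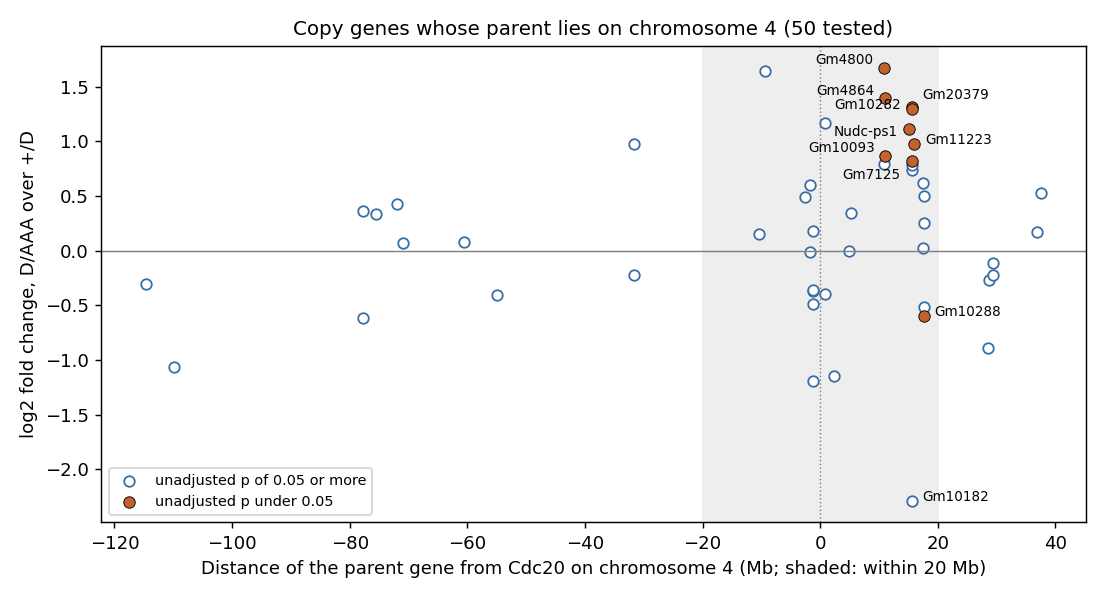
Log2 fold change of D/AAA over +/D (vertical axis) for 50 copy genes whose parent lies on chromosome 4, against the parent's distance from Cdc20 in Mb (horizontal axis); filled points have an unadjusted edgeR p under 0.05 and the shading marks 20 Mb on either side. All 9 filled points lie within the shading, 8 above 0 and 1 below, and the median of the 33 shaded points is 0.49.

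Each copy's counts were also added to its parent's. For Hmgn2 and Hdac1 the fold changes of the sums were smaller in size than those of the copies named above. They were larger than those of the parents alone. As most counts of each family fell on the parent, a smaller fold change than the copies' follows from the sum itself. The Hmgn2 family of parent and 7 copies summed to 1133 ± 212 CPM in +/D and 1366 ± 220 CPM in D/AAA libraries (n = 8 and 5). The log2 fold change of the sum was 0.27 ± 0.15 (edgeR p = 0.0769). The Hdac1 family of parent and 2 copies summed to 445 ± 39.5 and 534 ± 84.8 CPM (0.26 ± 0.12, edgeR p = 0.0443). The share of the family's counts that fell on copies was 15.1 to 19.9% in +/D libraries for Hmgn2, and 25.9, 27.2, 26.7, 19.1 and 22.6% in D/AAA replicates 1 to 5. For Hdac1 it was 18.6 to 24.8% and 39.9, 35.3, 39.8, 22.8 and 34.9%. In both families replicate 4 lay inside the +/D range and the other 4 above it. With all copies summed onto their parents, edgeR called 0 genes (491 at an unadjusted p under 0.05).

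A few genes inside the window that are not copies are given by library, chosen after their values were seen from the 20 with an unadjusted p under 0.05. Zbtb8a, a zinc finger gene 10.9 Mb from Cdc20, was at 4.64 to 25.5 CPM in +/D libraries, at 9.67 CPM in D/AAA replicate 4 and at 0 to 1.44 CPM in the other 4 (-2.39, edgeR p = 0.0107). Dcdc2b, a doublecortin-domain gene 11.2 Mb away, was at 1.86 to 7.54 CPM in +/D libraries, at 3.31 CPM in D/AAA replicate 4, at 1.86 CPM in replicate 1, level with the lowest +/D library, and at 0 to 0.431 CPM in the others. Aunip, whose product binds Aurora A, lies 16.1 Mb away and was at 13.9 to 28.8 CPM in +/D and at 11.3, 10.1, 10.1, 13.6 and 8.53 CPM in D/AAA libraries. There the groups did not overlap and replicate 4 was the D/AAA library closest to +/D (-0.99 ± 0.25, edgeR p = 0.000883). Laptm5, a lysosomal membrane protein that lowers T cell receptor levels, lies 12.5 Mb away and was at 323 to 548 CPM and at 275, 306, 335, 281 and 213 CPM (-0.52 ± 0.14, edgeR p = 0.0015), with only replicate 3 inside the +/D range. Slc5a9 also had only replicate 4 inside the +/D range, at 332.6 CPM, and the other 4 above it, at 578 to 662 CPM. Others of the 20 divided the libraries differently. Elavl4 was at 0 in replicate 5 and above the +/D range in the other 4, while P3h1 had replicates 2, 4 and 5 inside that range.

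Some copies of genes from other chromosomes differed between individual libraries. Gm10020, a copy of Rpl15, was at 227 and 253 CPM in D/AAA replicates 1 and 3 and at or under 2.73 CPM in all others. Gm26825, a copy of the chaperone gene Hspa8, was at 299 and 387 CPM in the same pair of libraries and at or under 12.6 CPM elsewhere. Rpl36-ps2, a copy of Rpl36 (96.6% identical), was not counted (0 counts) in any of the 5 D/AAA libraries and was at 0.842 to 9.07 CPM in +/D. Set against 3 counts over the D/AAA group (0.101 CPM), its +/D mean of 3.15 CPM makes it at least 31.2-fold lower in D/AAA (edgeR p = 6.12e-05, adjusted p = 0.198).

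Among genes that are not copies, the smallest p-values on the lower side were those of Tagap1, Junb and Lamb3, none of which passed the edgeR adjustment. Tagap1, a T cell activation GTPase-activating protein gene, was at 173 to 239 CPM (median 203) in +/D libraries and at 139, 128, 138, 140 and 120 CPM in D/AAA libraries. Junb, a subunit of the AP-1 transcription factor, was at 145 to 193 CPM (median 160) and at 124, 117, 104, 105 and 94.9 CPM. Lamb3, a laminin chain, was at 8.32 to 18.6 CPM (median 14.2) and at 5.21, 4.21, 7.18, 5.83 and 2.33 CPM. In all 3 genes every D/AAA library lay below every +/D library. The log2 fold changes were -0.62 ± 0.12 for Tagap1 (edgeR p = 9.19e-05, adjusted p = 0.198), -0.59 ± 0.13 for Junb (edgeR p = 0.000164, adjusted p = 0.303) and -1.50 ± 0.33 for Lamb3 (edgeR p = 0.000232). DESeq2 called each of them, with adjusted p-values of 0.00307, 0.00403 and 0.00403.

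Scn4b, a sodium channel beta subunit, was at 63.0 to 176 CPM in +/D and 49.1 to 75.1 CPM in D/AAA libraries (-1.0 ± 0.23, edgeR p = 0.000363), and the difference was -0.66 in the Xist-low libraries. Myl10, a myosin light chain, was at 404 to 687 CPM (median 596) in +/D and at 452, 400, 410, 411 and 270.0 CPM in D/AAA libraries (-0.60 ± 0.15, edgeR p = 0.000787). Fos, the partner of Jun proteins in AP-1, was at 1.45 to 29.4 CPM (median 12.1) and at 3.35, 3.03, 2.87, 3.71 and 4.14 CPM (-1.99 ± 0.53, edgeR p = 0.00145). The Fos values of D/AAA lay close together inside the wide range of +/D. Also lower in value were Atp9a, a phospholipid flippase (at or under 0.505 CPM in D/AAA and up to 18.3 CPM in +/D, edgeR p = 0.000659), the saposin precursor gene Psap (-0.55, p = 0.00177), the mitochondrial sirtuin gene Sirt4 (-0.76, p = 0.00253) and the glycerate kinase gene Glyctk (-1.07, p = 0.0028).

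Because Junb and Fos are immediate early genes, other genes of that class were listed after these values had been seen, so the following is a description. Jun was at 285 to 652 CPM in +/D and at 232, 323, 325, 223 and 401 CPM in D/AAA libraries (-0.57, edgeR p = 0.0187), Jund differed by -0.61 (p = 0.012) and Ier2 by -0.39 (p = 0.0273). Nr4a1, the orphan nuclear receptor induced by T cell receptor signals, was at 6.34 to 29.5 CPM and at 11.2, 6.74, 14.8, 4.24 and 10.1 CPM (-1.03 ± 0.38, edgeR p = 0.0138). Dusp1 (-0.34, p = 0.128), Egr1 (-0.36, p = 0.271), Zfp36 (-0.27, p = 0.481), Ier3 (-0.21, p = 0.767), Btg2 (-0.10), Klf6 (0.10) and Klf2 (0.13, p = 0.855) did not reach an unadjusted p under 0.05. Jun and Nr4a1 overlapped between genotypes, unlike Junb. In the Xist-low libraries Junb differed by -0.58 (edgeR p = 0.00087) and Fos by -2.36 (p = 0.00157), while Jun (-0.40, p = 0.0559), Jund (-0.33, p = 0.133), Ier2 (-0.31, p = 0.0989) and Nr4a1 (-0.89, p = 0.0573) did not reach a p under 0.05. Jun averaged 364 CPM in Xist-low and 586 CPM in Xist-high +/D libraries.

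On the higher side Tmx2 had the smallest p of the genes named by the rule given under processing. The copies Gm10282, Gm4864, Gm10093 and Gm20379, given above, had smaller ones. Tmx2, a thioredoxin-related membrane protein, was at 73.9 to 104 CPM in +/D and at 103, 135, 121, 138 and 187 CPM in D/AAA libraries (0.66 ± 0.15, edgeR p = 0.000368). Tmem186, a mitochondrial membrane protein, was at 53.8 to 85.2 CPM and at 99.7, 89.6, 92.4, 106 and 166 CPM (0.62 ± 0.17, edgeR p = 0.0018), with no overlap. Rrm1, the large subunit of ribonucleotide reductase, was at 280 to 446 CPM and at 473, 415, 523, 540 and 781 CPM (0.52 ± 0.16, edgeR p = 0.00382). D/AAA replicate 5 was the highest library for all 3 genes, and replicate 1 of Tmx2 and replicate 2 of Rrm1 lay inside the +/D range. Further genes with higher values were Pus7l (1.19, p = 0.00127), a pseudouridine synthase family member, Ccdc61 (0.77, p = 0.00187), Mtrex (0.50, p = 0.0023), the helicase of nuclear RNA exosome decay, Cd160 (1.29, p = 0.00243), a lymphocyte surface receptor, Etfdh (0.80, p = 0.00395), Gmps (0.53, p = 0.00441), the last enzyme of GMP synthesis, and the chaperonin subunit gene Cct8 (0.41, p = 0.00536).

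Cdc20 transcript itself was higher in value in D/AAA. It was at 242, 114, 215, 153, 250, 235, 100.2 and 108 CPM in +/D replicates 1 to 8 and at 304, 237, 254, 312 and 162 CPM in D/AAA replicates 1 to 5. The log2 fold change was 0.52 ± 0.24 (edgeR p = 0.0427, adjusted p = 0.995). The 3 lowest +/D values were those of the Xist-high libraries, which averaged 107 ± 7.03 CPM (n = 3) against 162 CPM in the Xist-high D/AAA library. In the Xist-low libraries the means were 219 ± 39.2 (n = 5) and 277 ± 36.7 CPM (n = 4). The log2 fold change among these was 0.34 (edgeR p = 0.0491). Trp53, the tumour suppressor, was at 303 to 412 CPM in +/D and 366 to 468 CPM in D/AAA libraries (0.20 ± 0.11, edgeR p = 0.095). Myc was at 419 to 714 CPM (median 508) and 453 to 538 CPM (-0.12 ± 0.13, edgeR p = 0.375).

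Of the 19 genes of the APC/C, its activators and its inhibitor, 0 were called and 1, Cdc20, had an unadjusted p under 0.05 (12 higher in value, median log2 fold change 0.10). For this and the lists that follow, the shares over all genes were 2.40% higher and 1.85% lower with such a p, 49.0% higher in value, and a median of -0.01. Fzr1, the activator that takes over from Cdc20 at mitotic exit, differed by 0.36 (p = 0.134), the small subunit gene Anapc13 by -0.38 (p = 0.0843) and Anapc10, which helps to recruit substrates, by 0.40 (p = 0.0897). Of 14 spindle checkpoint genes 13 were higher in value (median 0.25) and 1 had such a p, Spdl1, which brings dynein to kinetochores (0.90 ± 0.31, edgeR p = 0.00875, 0.50 without D/AAA replicate 5, which was at 76.3 CPM). Mad2l1, which encodes Mad2, differed by 0.31 (p = 0.122), and the checkpoint kinase gene Ttk by 0.36 (p = 0.169). Mad1l1, which anchors Mad2 at kinetochores, was the 1 member lower in value (-0.27, p = 0.291). Of 15 substrate genes of the ligase 14 were higher in value (median 0.26), and 2 had an unadjusted p under 0.05, the spindle assembly factor Tpx2 (0.50, p = 0.0336) and Skp2, an F-box protein (0.49, p = 0.0217). The direct targets Ccnb1, which encodes cyclin B1, and Pttg1, which encodes securin, differed by 0.45 (p = 0.173) and 0.02 (p = 0.944). In the Xist-low libraries the checkpoint list had a median of 0.15 with 10 of 14 higher in value (sums of 1467 and 1554 CPM, against 969 CPM in Xist-high +/D), and the substrate list a median of 0.02 with 8 of 15 higher (sums of 2262 and 2318 CPM, against 1204 CPM in Xist-high +/D). In both lists 0 members had an unadjusted p under 0.05 there. The 1 Xist-high D/AAA library summed to 1254 CPM for the checkpoint list and 1959 CPM for the substrate list. These sums were 1.29 and 1.63 times the Xist-high +/D means.

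The 40 genes of the mitotic spindle, kinetochore and cytokinesis list were all higher in value in D/AAA, with a median log2 fold change of 0.31, but 0 were called and 6 had an unadjusted p under 0.05 against 2.40% of all genes on the higher side. Ect2, which activates RhoA for cytokinesis, was at 27.7 to 55.0 CPM (median 33.5) in +/D and at 59.9, 35.7, 66.4, 62.4 and 63.4 CPM in D/AAA libraries (0.66 ± 0.21, edgeR p = 0.00514), and D/AAA replicate 2 was the one inside the +/D range. The kinetochore gene Ska3 (0.60, p = 0.0222), the condensin subunit gene Ncapg (0.46, p = 0.0288) and the kinesin genes Kif18a (0.66, p = 0.038) and Cenpe (0.57, p = 0.0402) followed. The summed level of the list was 2247 to 4960 CPM in +/D and 3799 to 4926 CPM in D/AAA libraries, a ratio of means of 1.21. The 3 Xist-high +/D libraries averaged 2385 ± 233 CPM, and the Xist-low ones 4347 ± 710 CPM (n = 5). Within the Xist-low libraries the D/AAA mean was 4508 ± 407 CPM (n = 4), a ratio of 1.04. There the median log2 fold change was 0.06, 25 of 40 genes were higher in value and 0 had an unadjusted edgeR p under 0.05. The 1 Xist-high D/AAA library, replicate 5, summed to 3799 CPM, 1.59 times the Xist-high +/D mean. With Xist high or low as a term of the edgeR fit the median was 0.24 and 33 genes were higher, in a fit where 473 genes (3.66%) had an unadjusted p under 0.05 on the higher side and 494 (3.83%) on the lower. Without D/AAA replicate 5 the median was 0.33. The part that the uneven split of Xist-high libraries, 3 of 8 against 1 of 5, has in the mitotic values beyond these figures was not tested.

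**Figure D3:**
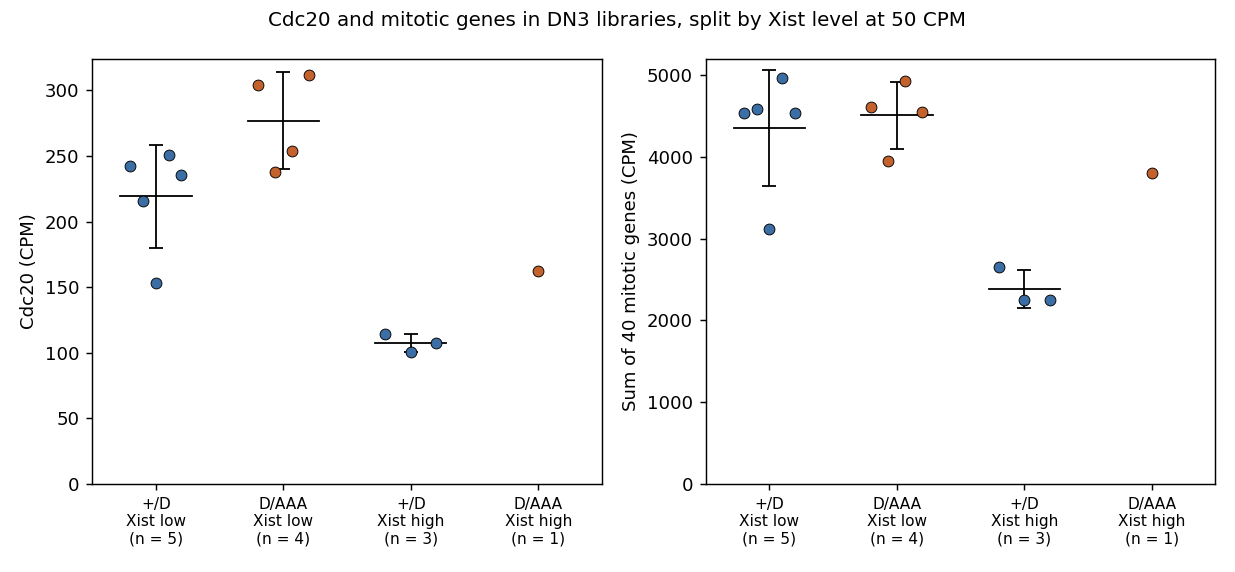
CPM of Cdc20 and summed CPM of the 40 mitotic genes (vertical axes) by genotype and Xist level (horizontal axis); points are libraries, bars are means and error bars SD. The Xist-high +/D libraries lie lowest, at means of 107 CPM and 2385 CPM. The 1 Xist-high D/AAA library lies at 162 CPM and 3799 CPM. Among Xist-low libraries the list sums average 4347 CPM in +/D and 4508 CPM in D/AAA.

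Promoters of mitotic genes often carry the cell cycle homology element TTTGAA near the start site, read by the MuvB complexes, together with CCAAT boxes bound by NF-Y. RefSeq promoters (GRCm38.p6, 250 bases before to 50 after the start) were found for 33 of the 40 list genes, 36 promoters in all. TTTGAA or its reverse complement TTCAAA was in 69.4% of them against 17.9% of all 32851 promoters, and CCAAT on either strand in 69.4% against 37.4%, with both in 58.3% against 6.95%. For the S phase list (30 promoters of 27 of its 34 genes) the shares were 10% for TTTGAA and 66.7% for CCAAT. The promoters of Cdc20 and of the 3 mitotic genes with the smallest p are shown because they place these letters in the genes described above. Of the next 2 mitotic genes by p, Kif18a held neither element in the same stretch and Cenpe held 1 CCAAT and no TTTGAA. Each is a stretch of 150 bases in the gene's own direction, with TTTGAA or TTCAAA and CCAAT on the strand shown in capitals, at chr4:118437344-118437493 on the minus strand for Cdc20, chr3:27153879-27154028 on the minus strand for Ect2, chr14:57826164-57826313 on the minus strand for Ska3 and chr5:45669775-45669924 on the plus strand for Ncapg:
Cdc20: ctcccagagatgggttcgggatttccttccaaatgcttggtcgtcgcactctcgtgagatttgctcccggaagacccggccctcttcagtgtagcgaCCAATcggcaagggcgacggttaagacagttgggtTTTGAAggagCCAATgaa
Ect2: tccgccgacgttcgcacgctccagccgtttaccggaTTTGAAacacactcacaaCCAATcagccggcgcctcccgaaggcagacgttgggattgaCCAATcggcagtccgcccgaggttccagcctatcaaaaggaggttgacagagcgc
Ska3: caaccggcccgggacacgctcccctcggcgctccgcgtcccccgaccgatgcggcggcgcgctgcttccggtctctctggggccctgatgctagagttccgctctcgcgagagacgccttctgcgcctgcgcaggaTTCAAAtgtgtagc
Ncapg: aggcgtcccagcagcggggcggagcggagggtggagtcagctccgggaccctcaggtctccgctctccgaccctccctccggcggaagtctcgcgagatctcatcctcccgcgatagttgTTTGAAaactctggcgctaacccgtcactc

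In Cdc20 the element starts 18 bases before the start site and the CCAAT boxes 53 and 8 bases before it, while in Ect2 the element lies farther out, at 114, with CCAAT at 96 and 55. Ncapg and Ska3 hold the element at 30 and 14 bases and no CCAAT in this window. These matches describe letters only and say nothing of what binds there in DN3 cells.

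The S phase list of 34 genes had 27 higher in value (median 0.15), 0 called and 4 with an unadjusted p under 0.05, all higher. These were Rrm1, given above, Rrm2, the small subunit of ribonucleotide reductase (0.41, p = 0.0185), Slbp, which binds histone mRNA (0.37, p = 0.035), and Pole, the leading-strand polymerase (0.56, p = 0.0466). In the Xist-low libraries the list's median was 0.09. Of 24 nucleolar and ribosome biogenesis genes 21 were higher in value (median 0.12). An unadjusted p under 0.05 was found for 2, Utp20 (0.68, edgeR p = 0.0251) and the nucleolin gene Ncl (0.29, edgeR p = 0.0315). This list had a median of 0.03 in the Xist-low libraries. In the 1 Xist-high D/AAA library the S phase and nucleolar sums were 1.25 and 1.36 times the Xist-high +/D means.

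In the stress and death lists 3 genes in all had an unadjusted p under 0.05. Of 22 p53 target genes 18 were tested, 11 were higher in value (median 0.16) and 0 had an unadjusted p under 0.05. The growth arrest gene Cdkn1a differed by -0.19 (p = 0.401), the p53 ligase gene Mdm2 by 0.07 (p = 0.667) and the pro-apoptotic Pmaip1, at means of 1.11 and 3.73 CPM, by 1.72 ± 0.87 (p = 0.0624). Of 14 BCL2 family genes 12 were tested, 4 were higher in value (median -0.06) and 0 had such a p. Of 21 interferon and DNA-sensing genes 16 were tested (median 0.11), and 1 had such a p, the virion tether Bst2 (-0.64, p = 0.0115). The median of that list was 0.46 in the Xist-low libraries and -0.11 without D/AAA replicate 4, so its direction turned with 1 library. Of 20 heat shock and unfolded protein genes 18 were tested (median 0.04), with Herpud1 higher (0.40, p = 0.0272) and Dnajb1 lower (-0.38, p = 0.0218) in value.

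Of the 20 DN3 and Notch genes 5 were higher (median -0.07), and the 1 with an unadjusted p under 0.05 was Cd3e, a CD3 signalling chain (-0.36, p = 0.0161). Notch1 differed by -0.26 (p = 0.27), its target gene Dtx1 by -0.07 (p = 0.76) and Ptcra by -0.01 (p = 0.94). Of 17 genes of beta selection and later stages 10 were higher (median 0.09), with Cd2, an adhesion receptor gained at beta selection, at 0.80 (p = 0.0409), Cd8a at 1.11 (p = 0.052) and Nr4a1 at -1.03. In the Xist-low libraries the medians of these lists were 0.05 and -0.01. Of 12 early progenitor genes 5 were tested, 1 was higher in value and the median was -0.16 (-0.39 without D/AAA replicate 5, -0.56 without replicates 4 and 5, and 0.06 without +/D replicate 2), and the list summed to 30.6 to 129 CPM in +/D and 44.7 to 93.1 CPM in D/AAA libraries.

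**Figure D4:**
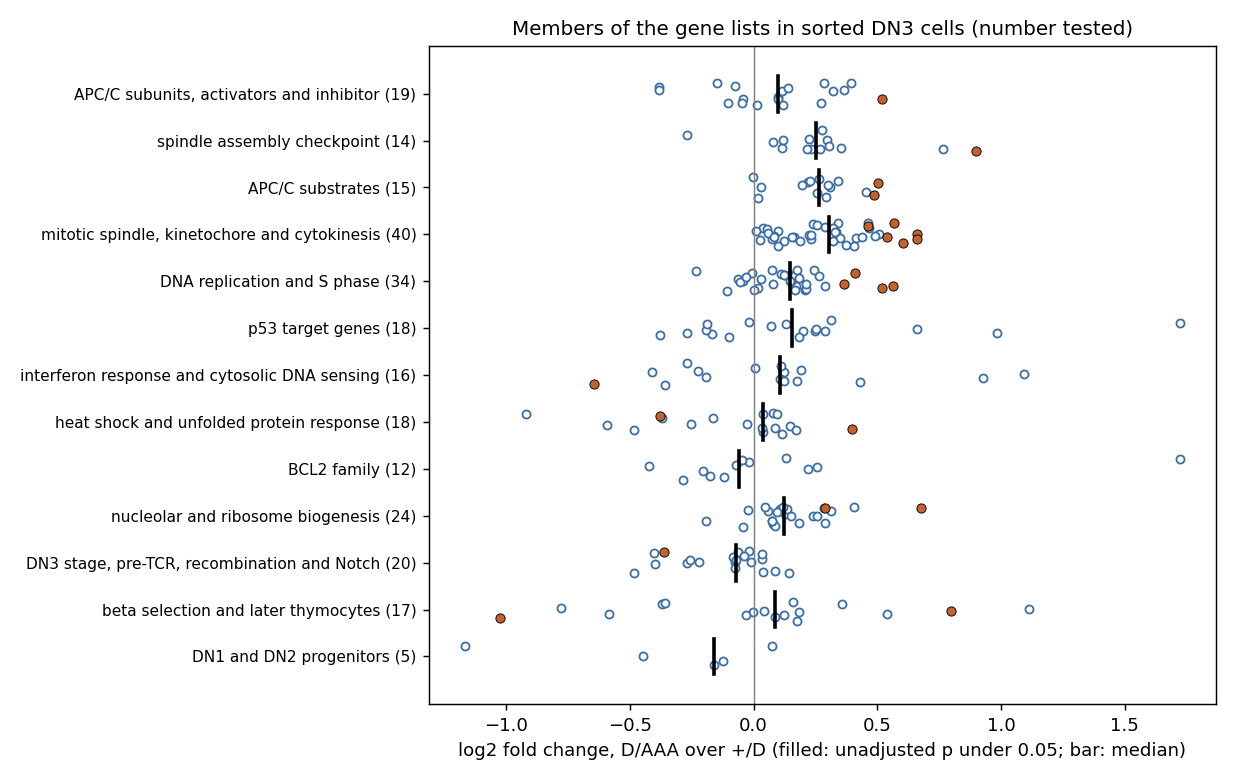
Log2 fold change of D/AAA over +/D (horizontal axis) for the tested members of 13 pathway and stage lists (vertical axis); each point is a gene, filled where the unadjusted edgeR p is under 0.05, and the bar is the list's median. The mitotic list lies wholly above 0 with a median of 0.31, and the DN3 list is centred at -0.07.

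Markers of other cell types were compared for the same libraries. Of 9 gamma delta T cell genes 8 were tested, and Blk, a kinase of gamma delta and B cells (0.73, p = 0.0135), and the transcription factor gene Sox13 (0.61, p = 0.0462) had an unadjusted p under 0.05, while the constant segment Trdc differed by 0.13 (p = 0.36). Of 7 B cell genes 3 were tested, and Ighm, whose locus is transcribed in thymocytes as well, averaged 384 and 499 CPM (0.38, p = 0.0136). The list summed to 340 to 549 CPM in +/D and 515 to 616 CPM in D/AAA libraries, with Pax5 at 0 in all. Of 7 red cell genes 2 were tested. Hbb-bs, a beta globin gene, was at 0 to 1.67 CPM in +/D and at 4.65, 4.04, 3.73, 3.31 and 2.07 CPM in D/AAA libraries (2.57 ± 0.78, edgeR p = 0.00387). It was the 1 list member whose groups did not overlap, and the red cell list summed to 0.145 to 5.51 and 6.72 to 8.61 CPM, with Slc4a1 at 0 in all libraries. Of 8 dendritic cell and macrophage genes 4 were tested and were lower in value (median -0.48), and 0 of 6 granulocyte genes were abundant enough to be tested (sums at or under 2.70 CPM). The part of other cells in the genotype values was not tested.

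To compare whole chromosomes between genotypes, the log2 levels of the 9103 genes that averaged 10 CPM or more were averaged per chromosome. These averages, the scores, were set against the +/D mean. They were not set against the library's other chromosomes, so a shift shared by a library's chromosomes stays in them. Most scores of D/AAA replicates 2 and 5 were negative, and the part of such a shift in the differences below was not tested. Of 20 chromosomes 0 differed between genotypes after adjustment (exact permutation test, 2-sided, 1287 assignments, smallest adjusted p = 0.199), and 5 had an unadjusted p under 0.05. The smallest was 0.0241 for chromosome 9, with a difference of -0.06, and chromosome 4, which carries Cdc20, differed by -0.06 (p = 0.029). Single libraries departed more. D/AAA replicate 1 had a score of 0.23 on chromosome 15 and D/AAA replicate 2 a score of -0.18 on chromosome 7. The shallow D/AAA replicate 5 had -0.28 on chromosome 7, -0.27 on chromosome 17 and -0.25 on chromosome 13. All scores of +/D libraries lay between -0.11 and 0.10. The SD of a library's 20 scores was 0.0302 to 0.0620 in +/D (mean 0.0416 ± 0.0106, n = 8) and 0.0684, 0.0803, 0.0327, 0.0320 and 0.101 in D/AAA replicates 1 to 5 (0.0628 ± 0.0301). D/AAA replicates 1, 2 and 5 lay above every +/D library and replicates 3 and 4 among the lowest. Replicates 1, 2 and 5 were also the libraries with the lowest totals, at 5321642, 6137178 and 3773392 counts. Replicates 3 and 4 had 6994680 and 7519509 counts. The part of depth in the spread was not tested. The means differed by 0.0212 (exact permutation p = 0.0963). Without D/AAA replicate 5 the difference was 0.00999 (exact permutation p = 0.307). Without replicate 3 it was 0.0277 (exact permutation p = 0.0263) and without replicate 4 it was 0.0293 (exact permutation p = 0.0222). Replicates 3 and 4 had the smallest spread of the D/AAA libraries, so leaving either out raises the difference.

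**Figure D5:**
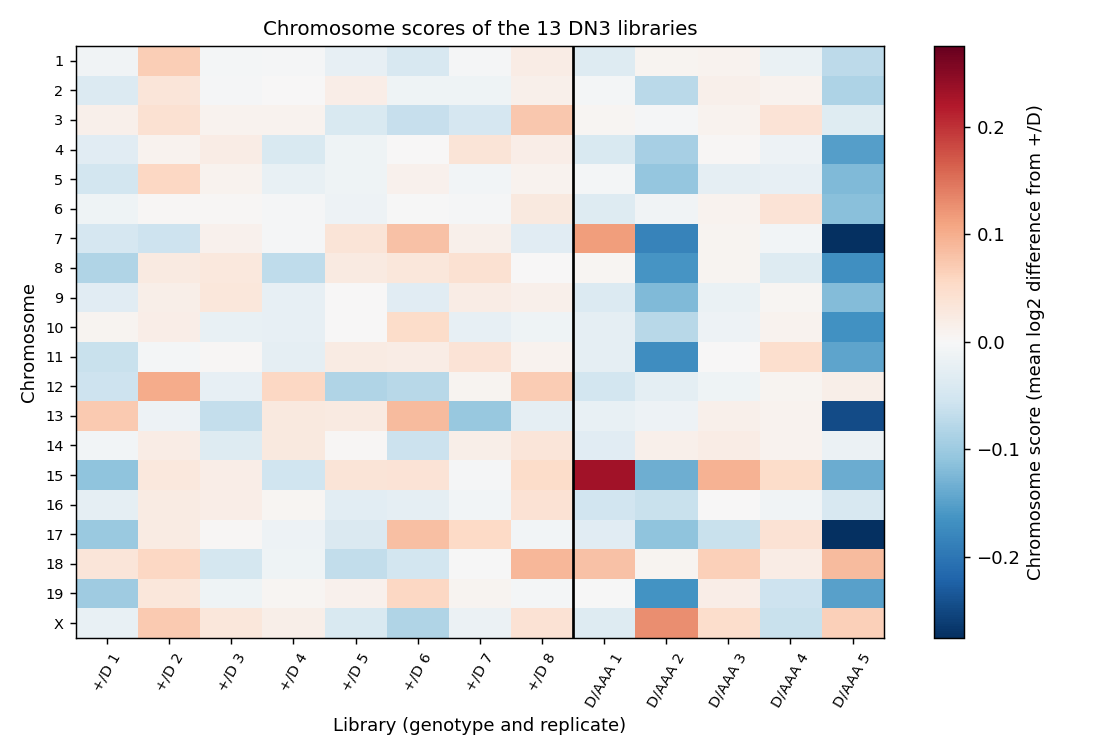
Heatmap of chromosome scores, in log2 units relative to the +/D mean, for 20 chromosomes (vertical axis) in the 13 DN3 libraries (horizontal axis). The strongest cells are chromosomes 7 (-0.28), 17 (-0.27) and 13 (-0.25) in D/AAA replicate 5 and chromosome 15 in D/AAA replicate 1 (0.23).

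Use of T cell receptor beta variable segments was spread over many genes in each library. The most counted Trbv gene took 11 to 20.6% of Trbv counts in +/D and 10.9 to 15.9% in D/AAA libraries (15.5 ± 3.0 and 13.9 ± 1.93, n = 8 and 5; exact permutation p = 0.293, 2-sided), from 1836 to 5844 Trbv counts per library. The effective number of Trbv genes (the exponential of the Shannon entropy) was 16.6 ± 0.786 and 16.9 ± 0.445 (exact permutation p = 0.575).

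The genotype difference at DN3 was set against that at DN1, DN4 and DP in 1 fit of all sorted libraries of these stages (16403 genes), in which the groups of every stage share 1 estimate of the spread. By edgeR's adjusted p the difference itself differed for 3 genes between DN3 and DN1 (0.0183%), for 6 between DN3 and DN4 (0.0366%) and for 0 between DN3 and DP (0%, with 921 genes at an unadjusted p under 0.05). The genotype effect at the other stages gave 24 calls at DN1 (0.146%), 10 at DN4 (0.0610%) and 217 at DP (1.32%) in that fit. These came from 9, 6 and 11 D/AAA libraries, and those of DN1 include a library of only 21199 counts, described below. At DN3 the same fit called Gm10282, Slamf9, Gm20379 and Gm4864.

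Between DN3 and DN1 the genes were Colq, Psrc1 and P2rx1. D/AAA replicate 8 of DN1 had only 21199 counts against 3565763 to 9298676 in the other DN1 libraries, so DN1 ranges are given without it. Colq, which encodes the collagen tail of acetylcholinesterase, was at 31.5 to 64.8 CPM in DN3 +/D and at 102, 36.4, 56.3, 73.2 and 71.5 CPM in DN3 D/AAA libraries, a log2 fold change of 0.57, and was at 10.7 to 64.8 CPM and 4.71 to 15.1 CPM at DN1, a fold change of -2.17 (difference 2.75, edgeR adjusted p = 1.67e-05). Psrc1, a microtubule regulator, was at 16.3 to 38.9 and 16.3 to 52.3 CPM at DN3, and at DN1 it was at or under 0.468 CPM in +/D and at 1.21 to 8.05 CPM in D/AAA libraries (difference -5.08, edgeR adjusted p = 0.000646). P2rx1, an ATP-gated channel, was at 19.6 to 50.9 and 12.9 to 31.0 CPM at DN3, and at or under 0.137 CPM in DN1 +/D against 0 to 11 CPM in DN1 D/AAA libraries (difference -5.76, edgeR adjusted p = 0.00619, and 0.301 in a fit of DN1 and DN3 alone). Without that library the differences were 2.74, -5.03 and -5.74 (edgeR adjusted p = 2.13e-05, 0.000602 and 0.007). For all 3 the DN3 groups overlapped.

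Between DN3 and DN4 the 4 genes with the smallest p, Slamf9, Ifit3b, Spin2c and Iqcd, were low. Spin2c (difference 9.04) rested mostly on DN3 D/AAA replicate 2, at 8.08 CPM. In replicates 3 and 4 it was at 0.138 and 1.16 CPM, and replicates 1 and 5 had 0 counts. Slamf9, a SLAM family receptor gene, had 0 counts in 7 DN3 +/D libraries and 1 count in the eighth, and was at 1.26, 4.38, 0.414, 2.96 and 9.34 CPM in DN3 D/AAA libraries, so that its groups did not overlap at DN3. In DN4 each of the 6 D/AAA libraries had 0 counts of it, and it reached 1.51 CPM in +/D (difference 11.17, edgeR adjusted p = 0.00357). It fell under the low-count filter of the DN3 fit, and its adjusted p at DN3 was 0.00587 in the fit of all stages. Ifit3b was detected in 2 DN3 D/AAA libraries, at 2.02 and 0.552 CPM, and in 0 of 6 DN4 D/AAA libraries (difference 10.41, edgeR adjusted p = 0.00553). In DN3 +/D libraries it was at or under 0.0927 CPM. Iqcd was at 0.0927 to 4.59 CPM in DN3 +/D and at 2.06 to 5.65 CPM in DN3 D/AAA libraries. In DN4 D/AAA libraries it was at or under 0.221 CPM (difference 6.72, edgeR adjusted p = 0.0297). For Ifit3b and Iqcd the DN3 groups overlapped, and the differences also take in the DN4 +/D libraries. A fit of DN3 and DN4 alone called 0 genes, and as many of these libraries are at 0 the differences depend on the small count that the fit adds.

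The copies of genes near Cdc20 were followed through the stages as well, with levels from the fit of all sorted libraries. Gm10182 had 0 counts in 6 of 6 D/AAA libraries at DN4, where +/D libraries were at 40.1 to 80.0 CPM (edgeR adjusted p = 0.000409), and in 10 of 11 at DP (edgeR adjusted p = 1.04e-05), where the highest value was 0.128 CPM. At DN1, where +/D libraries were at 0.944 to 13.2 CPM, 7 of 9 D/AAA libraries had 0 counts (adjusted p = 0.828), 1 of them the shallow replicate 8, which also had 0 counts of Gm10282, Gm4864 and Gm10093. Without it 6 of 8 had 0 counts (edgeR adjusted p = 0.851), and Gm10282 differed by 0.61 at DN1 (0.441). Gm10282 differed by 0.59 at DN1 (edgeR adjusted p = 0.465), 1.3 at DN3 (0.00555), 0.76 at DN4 (0.189) and 1.07 at DP (0.00278). Gm20379 differed by 1.04 at DN4 (edgeR adjusted p = 0.0851) and 1.43 at DP (0.00067), with no overlap at either. Gm4864 and Gm10093 differed by 0.94 (edgeR adjusted p = 0.014) and 0.85 (0.00483) at DP. Junb and Tagap1 were called at DN3 by DESeq2 alone, and at DP Tagap1 differed by -0.66 (edgeR adjusted p = 0.0146).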

How the data were processed

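The authors deposited RSEM expected counts per gene, all whole numbers, and the table of the earlier run was used. Per the submitters' processing notes, reads went through FastQC, STAR 2.5.3a and RSEM 1.3.0 on GRCm38. For annotation release and strandedness nothing is given in the sources used here. Of 50686 genes, 50376 had a symbol in GENCODE M21, and 1 of 323 list genes had no match. A further list gene is not reported here. The lists and the genes to be named were chosen with earlier results of these data known.

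Genes passing filterByExpr were compared with edgeR 4.0.16 quasi-likelihood tests (TMM, robust, 2-sided, Benjamini-Hochberg, threshold 0.05) in R 4.3.3. The same fit was also run on simulated counts with known fold changes, built from the means, spread and totals of the DN3 libraries. DESeq2 1.42.0, limma 3.58.1 voom, other scalings and filters, and libraries left out were alternatives. The Xist term, the Xist-low subset, the summed copies and the removal of D/AAA replicates 4 and 5 or of the shallow DN1 library were chosen after seeing the data. Up to 12 genes per direction were named by smallest p, among those with a mean of at least 5 CPM and 4 of 5 D/AAA libraries on 1 side of the +/D median, and up to 4 per list and stage contrast. Genes with identifier-only names fell outside this rule, except Gm10182, and were named after their values were seen, as were Prss41 and Gm15429 under alternatives. Copies were matched to parents with BLAST 2.17.0 (at least 50% of the copy aligned). Chromosome scores and Trbv use were compared by exact permutation.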

Additional observations from a re-analysis of the deposited data

Results flagged for a closer look

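In 12 of 84 groups of values examined, 1 library stood apart from the rest of its group by Dixon's criterion at the 95% level, which chance meets in about 1 of 20 groups, and 3 of the 12 were in D/AAA replicate 5. Among +/D libraries these were replicate 6 for Myc (714 CPM) and Gm10182 (107 CPM), replicate 2 for Gmps (175 CPM) and Laptm5 (548 CPM), replicate 3 for Ccdc61 (43.8 CPM), and replicate 1 for Cd160 (12.03 CPM) and, on the low side, for the sum of the BCL2 family (667 CPM). Among D/AAA libraries they were replicate 4 for Gm10182 (51.1 CPM), replicate 5 for Tmem186 (166 CPM), Etfdh (189 CPM) and, on the low side, Myl10 (270.02 CPM), and replicate 2 on the low side for Ect2 (35.7 CPM).

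The log2 genotype difference at DN3 departed from that at DN1 by 2.75 for Colq, -5.08 for Psrc1 and -5.76 for P2rx1 in edgeR's test of the difference itself. It departed from that at DN4 by 11.17 for Slamf9, 10.41 for Ifit3b, 10.12 for Cebpd, 9.04 for Spin2c, 8.21 for Fn3k and 6.72 for Iqcd, genes of few counts for which the fold depends on the small count added by the fit.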

How the results depend on the processing

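The number of genes called by adjusted p was 0 as reported, 13 with DESeq2, 2 with voom, 4 without the low-count filter, 4 in the fit of all sorted stages and 4 without D/AAA replicates 4 and 5. It was 0 to 4 with 1 library left out: Gm15429 without D/AAA replicate 1, Gm9625 and Gm9008 without replicate 2, Slamf9 without replicate 3, and the 4 copies of Hmgn2 and Hdac1 without replicate 4. The genes without overlap, 24 as reported, were 30 to 78 with 1 library left out, 212 in the Xist-low libraries alone and 143 without D/AAA replicates 4 and 5, all of them fits with fewer libraries to separate. The genotype difference in the spread of chromosome scores was 0.00999 to 0.0293 with 1 library left out. The DN3 against DN4 count was 0 in a fit of those stages alone and 4 to 10 with 1 library left out. The DN1 count (3 to 4), the DP count (0) and the chromosomes called (0 in 16 alternatives) kept to their values. The fold changes of 28 genes were followed: Cdc20, Trp53, Myc, Gm10182 and those named by smallest p per direction. Of their 587 alternative values 579 kept their side of the threshold, 8 passed it and 0 reversed. Copies other than Gm10182 were not among these genes. Gm10282 was called with DESeq2, with voom, without the low-count filter and in the fit of all sorted stages. It was also called without D/AAA replicate 4 and without replicates 4 and 5. No paired analysis was possible because the labels give no replicate numbers. D/AAA replicate 5, the shallowest library, and the group sizes of 5 and 8 limit what could be detected.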
